A study of Mus musculus with 4 samples.

Results

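The genes described here are 48 splicing factor and hnRNP genes: the rows of the expression table whose symbol begins with Srsf, Sfrs, Snrp, Sf3a, Sf3b or Hnrnp and whose mean level over the 4 libraries is at least 1 RPKM (reads scaled by the length of the gene and by the mapped reads of the library). Of 23240 rows, 50 carry such a symbol and 48 passed the minimum; none has a pseudogene ending. The members are 11 SR protein genes (10 Srsf genes and Sfrs18, which RefSeq now calls Pnisr), 11 Snrp genes, 3 Sf3a genes, 5 Sf3b genes and 18 Hnrnp genes. The 2 rows left out, Srsf12 and Snrpn, averaged 0.0120 and 0.00876 RPKM, and the lowest member, Hnrnph3, averaged 15.8 RPKM.

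RNA was sequenced from bone marrow cells of leukaemic B6 mice, sorted as GFP+ and BFP+ and as lacking CD11b and Gr1, surface proteins of mature myeloid cells. The labels name the cells a RUNX1-FLT3ITD AML, an acute myeloid leukaemia with an activating internal tandem duplication of the receptor FLT3. The 4 libraries are 4OHT-treated Runx1 delta/delta, 4OHT-treated Runx1 delta/+, EtOH-treated Runx1 delta/delta and EtOH-treated Runx1 delta/+ cells, 1 library each. All had been cultured for 22 h in SFEM medium with FLT3L, SCF, IL3 and IL11, and the treatment was 200 nM 4OHT (4-hydroxytamoxifen, a ligand widely used to switch on proteins fused to an oestrogen receptor domain) or an equal volume of ethanol (EtOH), the solvent. Every library carries at least 1 deleted Runx1 allele, so no library is wild type for Runx1. The labels do not give the protein on which 4OHT acts, the Cre line or promoter behind the Runx1 deletion, or how many mice or cultures stand behind a library. Genotype and replicate number coincide (delta/delta is replicate 1), so a difference between genotypes and a difference between individual leukaemias cannot be told apart.

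Splicing removes introns from newly made RNA. The spliceosome is built from small nuclear RNAs, each held in a particle: a ring of Sm proteins (products of Snrpb, Snrpd1, Snrpd2, Snrpd3, Snrpe, Snrpf and Snrpg) closes around the RNA, and further proteins mark the U1 particle, which recognises the start of the intron, and the U2 particle, which pairs with the branch point through the SF3a and SF3b subcomplexes. SR proteins bind exons through RNA recognition motifs and recruit these particles with their arginine-serine domains. The hnRNPs coat nascent RNA and often oppose SR proteins. In myeloid leukaemias and myelodysplasia SRSF2, SF3B1, U2AF1 and ZRSR2 are recurrently mutated in patients. Many SR and hnRNP genes control their own level through exons whose inclusion sends the transcript to decay, so the gene totals measured here do not separate productive from decaying transcripts.

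The promoters of members with a called change were read from RefSeq for GRCm38.p6, where 42 of the 48 members were found, with 56 start sites. The 150 bases before the start are shown for the 4 called members whose window touches no annotated exon: Srsf2 and Hnrnpab, which rose with 4OHT, and Hnrnpul1 and Hnrnpa1, which differed between genotypes. Each reads 5′ to 3′ along the gene, and capitals mark matches to the motifs searched.
Srsf2, chr11:116853095-116853244, minus strand: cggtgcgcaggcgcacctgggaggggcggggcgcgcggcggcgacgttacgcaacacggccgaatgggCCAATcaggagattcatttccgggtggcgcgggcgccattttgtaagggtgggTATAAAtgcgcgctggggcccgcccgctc
Hnrnpab, chr11:51606882-51607031, minus strand: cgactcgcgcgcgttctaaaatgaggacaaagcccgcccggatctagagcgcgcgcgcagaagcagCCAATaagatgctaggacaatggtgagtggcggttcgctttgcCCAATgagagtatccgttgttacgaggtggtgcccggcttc
Hnrnpul1, chr7:25754760-25754909, minus strand: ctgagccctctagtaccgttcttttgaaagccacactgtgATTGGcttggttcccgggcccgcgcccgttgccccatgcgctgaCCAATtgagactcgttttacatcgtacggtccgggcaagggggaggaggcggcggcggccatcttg
Hnrnpa1, chr15:103240247-103240396, plus strand: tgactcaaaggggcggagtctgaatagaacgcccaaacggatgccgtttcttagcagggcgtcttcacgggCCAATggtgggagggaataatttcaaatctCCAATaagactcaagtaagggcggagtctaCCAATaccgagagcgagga
In these 4 windows the capitals are CCAAT or its reverse complement ATTGG, the letters bound by NF-Y, and in Srsf2 also TATAAA, the TATA box. Hnrnpa1 holds CCAAT 3 times on the gene's own strand, and Hnrnpul1 holds it on both strands. Over the full RefSeq windows of 300 bases around each start, CCAAT on either strand occurred in 48.2% of the members' windows, against 38.6% of the 9761 windows of genes tested (37.4% of all 32851 windows). CCGGAAG, an ETS factor motif, occurred in 35.7% of the members' windows against 20.3% of those of genes tested (8.86% of all). TGTGGT, the core motif of RUNX proteins, occurred in 8.93% against 12.4%, CACGTG (the E box; its own reverse complement) in 12.5% against 10.6%, GCATGCGC (NRF1) in 5.36% against 5.78%, and TATAAA in 10.7% against 6.42%. The median number of CG dinucleotides per window was 26 in members and 21 in genes tested. No motif shares letters with another in the printed windows. These shares describe letters in a window and carry no test.

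The splicing genes were highly expressed in every library. The median member stood at 90.6 RPKM in 4OHT delta/delta and 90.4 RPKM in 4OHT delta/+ cells, against 75.4 RPKM in EtOH delta/delta and 82.3 RPKM in EtOH delta/+ cells, where the median of all 9595 genes tested lay between 11.6 and 13.4 RPKM. The members together held 1.53% and 1.60% of summed RPKM in 4OHT cells (delta/delta and delta/+) and 1.18% and 1.33% in EtOH cells. The hnRNP genes were the largest family in this sum, with 3506 and 3201 RPKM in 4OHT cells (delta/delta and delta/+) and 2905 and 2766 RPKM in EtOH cells: Hnrnpk, a KH-domain protein that binds C-rich RNA, averaged 484 RPKM, Hnrnpf, which binds G-tracts, 474 RPKM, and Hnrnpa2b1, 373 RPKM. Among SR genes Srsf5 (mean 255 RPKM) and Srsf2 (224 RPKM) were the most abundant, and among Snrp genes the Sm genes Snrpd3 (251 RPKM) and Snrpd1 (218 RPKM). The range within the hnRNP family was wide, down to Hnrnph3 at 15.8 RPKM. Hnrnpa1, a much studied splicing repressor, averaged 26.9 RPKM here; it has many processed pseudogenes in mammals, as do several Sm genes, and since no source used here states the counting rule, reads shared with such copies make these levels uncertain.

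**Figure D1:**
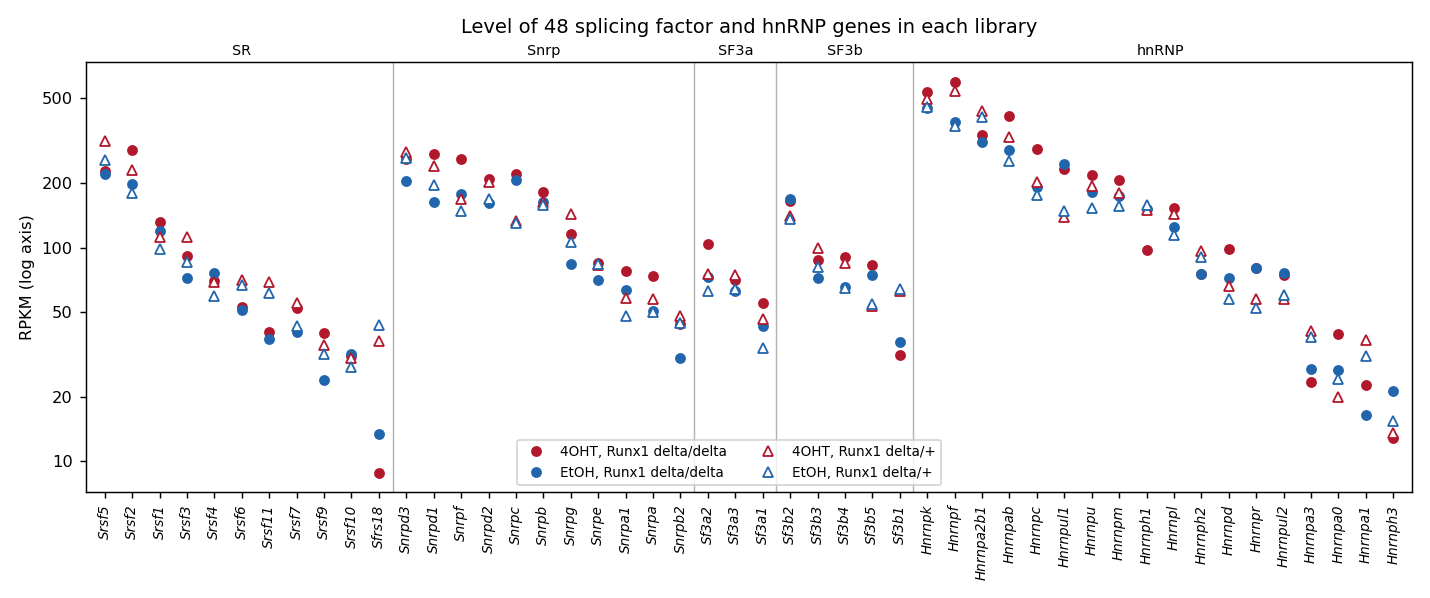
RPKM (log axis) of each of the 48 members in the 4 libraries, grouped by family and ordered by mean level; filled circles are delta/delta and open triangles delta/+ cells, red is 4OHT and blue EtOH. Levels span from 8.84 RPKM (Sfrs18 in 4OHT delta/delta cells) to 598 RPKM (Hnrnpf in 4OHT delta/delta cells), and Sfrs18 and Sf3b1 split by genotype rather than by treatment.

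The libraries differed in more than these genes. Mapped reads, worked out from the RPKM of a single read, were 36.7 and 39.4 M in 4OHT (delta/delta and delta/+) and 34.6 and 33.7 M in EtOH cells. The fewest reads behind a member value, estimated with the length of a reference transcript, were about 966 (Srsf9 in EtOH delta/delta cells). By this estimate counting error is small for all members. Marker genes said here to rise or fall passed the test described in the next paragraph. By that test 22.2% of all genes tested rose and 10.2% fell. Of 15 erythroid genes 14 fell with 4OHT, and the list summed to 4723 and 3131 RPKM in 4OHT cells (delta/delta and delta/+) against 63177 and 33883 RPKM in EtOH cells. Globin genes took 0.918% and 0.662% of summed RPKM in 4OHT delta/delta and delta/+ cells, against 12.3% and 7.66% in EtOH delta/delta and delta/+ cells. Of 5 megakaryocyte genes tested 4 fell and 1 rose, and of 6 mast cell and basophil genes 3 rose (sums of 144 and 28.6 RPKM in 4OHT against 12.4 and 15.5 RPKM in EtOH cells). Prss34 alone had 79.6 RPKM in 4OHT delta/delta cells. Cma1 was lower with 4OHT in both genotypes (1.14 and 0.75 against 1.32 and 2.62 RPKM), and Mcpt8 and Fcer1a were lower in delta/+ cells. The neutrophil list summed to between 16.9 and 45.3 RPKM over the 4 libraries with Itgam (CD11b) at most 0.36 RPKM, the monocyte list to between 6.13 and 11.8, and the B cell list to at most 0.287 RPKM with Ms4a1, Ebf1 and Pax5 at 0 in all libraries. Cd3e, Siglech and Cdh5, markers of T cells, plasmacytoid dendritic cells and endothelium, were also at 0, but 1 gene rose in the T and NK cell list (Nkg7, with 6.53 and 2.68 RPKM in 4OHT against 0.18 and 0.36 RPKM in EtOH cells) and 1 in the stroma and endothelium list (Pecam1, with 3.58 and 12.0 against 2.14 and 8.11 RPKM). Runx1 itself stood at 380.5 and 568 RPKM in delta/delta cells (4OHT and EtOH) and 328 and 555 RPKM in delta/+ cells; which part of the gene is deleted is not stated, so this total does not check the genotype labels. Of the other blast markers, Flt3 (12.6 to 46.3 RPKM) was present, whereas Cd34 and Mpo were at most 0.56 RPKM and Kit ran from 0.74 to 1.61 RPKM in 4OHT and from 0.08 to 0.10 RPKM in EtOH cells. The part of these shifts in the splicing gene results was not tested. In such bulk samples fewer cells of a type and less RNA per cell cannot be told apart.

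With 4OHT, 4 of the 48 members rose and none fell: Hnrnpf, Srsf2, Snrpg and Hnrnpab (limma on log2(RPKM + 1) with treatment and genotype as terms, two-sided, Benjamini-Hochberg adjusted p under 0.05). All changes below are on this log2 scale, 4OHT minus EtOH. The 4 risers are 8.33% of the members, against 22.2% of all genes tested that rose, and the 0 that fell stand against 10.2% that fell; at an unadjusted p under 0.05, 13 members were higher (27.1%, against 31.4% of all genes tested) and 1, Sfrs18, lower (2.08%, against 14.3%). No member reached a change of 1, which 12.9% of all genes tested did. The members' median change was 0.21 (0.26 in delta/delta and 0.19 in delta/+ cells) and that of all genes tested 0.16 (0.17 and 0.15), so the typical splicing gene moved about as much as the typical gene, and 27 members lay above the median of all genes. Their changes also spread less: the middle of the distribution (quartiles) ran from 0.06 to 0.36 in members and from -0.15 to 0.49 in all genes tested. When libraries were rescaled to equal median ratios the median of all genes was -0.04 and that of the members -0.01, no member rose (against 15.3% of all genes tested), and Sfrs18, Hnrnph1 and Hnrnph3 fell (6.25%, against 17.4%); changes are therefore also given relative to the median of all genes.

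Hnrnpf, whose product binds G-tracts and favours or blocks nearby splice sites, had 598 and 539 RPKM in 4OHT cells (delta/delta and delta/+), against 389 and 372 RPKM in EtOH cells. Both 4OHT libraries lay far above both EtOH libraries; the change was 0.58 (SE 0.11, adjusted p = 0.0161), or 0.41 above the median change of all genes. Srsf2 (SC35), an SR protein that activates exons and is mutated in myeloid disease, had 287 and 231 RPKM in 4OHT cells against 198 and 180.2 RPKM in EtOH cells. The groups did not overlap and the change was 0.45 (SE 0.12, adjusted p = 0.0439), 0.28 above the median. Snrpg, the smallest of the Sm ring proteins, had 115 and 144 RPKM in 4OHT cells against 83.3 and 107 RPKM in EtOH cells. Here delta/+ libraries were the higher in both treatments, the groups did not overlap, and the change was 0.45 (SE 0.12, adjusted p = 0.0443), 0.29 above the median. Hnrnpab, an RNA-binding protein related to the AU-rich element binder Hnrnpd, had 411 and 330.0 RPKM in 4OHT cells against 287 and 255 RPKM in EtOH cells. Again no EtOH library reached a 4OHT library, and the change was 0.44 (SE 0.12, adjusted p = 0.0394), 0.28 above the median. Srsf2, Hnrnpab and Hnrnpf overlap another annotated gene (Mfsd11, Phykpl and 4933440N22Rik), and without knowledge of strand in the counting the reads of such neighbours cannot be told apart; Snrpg overlaps none. None of the 4 calls held under median-ratio scaling (limma adjusted p = 0.0599 for Hnrnpf and 0.217 to 0.22 for the others), without the filter on low levels (0.0588 to 0.0935), once a trend with GC and length was taken out, without the genotype term, or with any library left out. With a library left out, in fits without the genotype term, Srsf2 and Hnrnpab were lowest without the 4OHT delta/delta library (0.29 and 0.28). Snrpg was lowest without the EtOH delta/delta library (0.27) or the 4OHT delta/+ library (0.29).

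**Figure D2:**
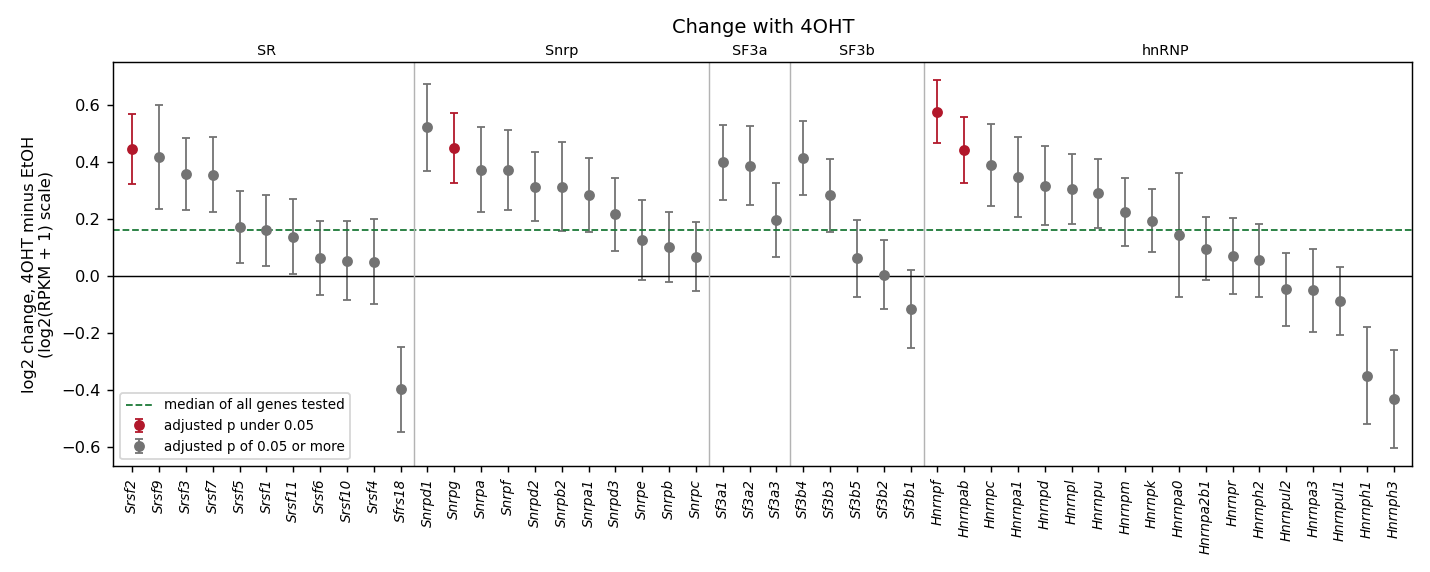
Change with 4OHT, 4OHT minus EtOH on the log2(RPKM + 1) scale, of each member, grouped by family; bars are the standard error from the fit to 4 libraries, red marks an adjusted p under 0.05, and the dashed line is the median of all genes tested, 0.16. Hnrnpf, at 0.58, is the highest and Hnrnph3, at -0.43, the lowest, and 27 members lie above the dashed line.

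In both genotypes 35 members were higher in 4OHT than in EtOH cells (72.9%, against 54.5% of all genes tested) and 6 lower (12.5%, against 26.8%), and 7 went opposite ways (14.6%, against 18.7%). The 2 treatment groups did not overlap, with 4OHT above, for 20 members (41.7%, against 38.4% of all genes tested), and with 4OHT below for 2 members (4.17%, against 16.9%), Hnrnph1 and Hnrnph3. These shares rest on RPKM as deposited. They are not given under median-ratio scaling, where the members' median change was -0.01. Across the 48 members the change in delta/delta cells and that in delta/+ cells correlated with Pearson's r = 0.61 and Spearman's rho = 0.57. Across all genes tested the values were higher (0.85 and 0.81), but changes there also spread more (standard deviation 0.73, against 0.23 in members). What this narrower spread does to the members' correlation was not tested. Each point is a gene and all points share the same 4 libraries, so no test is attached.

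Of the Sm ring, 1 of 7 genes rose (Snrpg), beside 22.2% of all genes tested. At an unadjusted p under 0.05, 4 were higher, beside 31.4% of all genes tested. The median change of the ring genes was 0.31 (0.09 under median-ratio scaling). Their summed level was 1385 and 1281 RPKM in 4OHT cells (delta/delta and delta/+) and 1025 and 1121 RPKM in EtOH cells. Snrpd1 came closest to the threshold without passing it, with 274 and 239.6 RPKM in 4OHT against 163 and 196 RPKM in EtOH cells (0.52, SE 0.15, adjusted p = 0.0519). Snrpf had 259.9 and 169 RPKM in 4OHT cells and 178 and 148 RPKM in EtOH cells (0.37, SE 0.14, adjusted p = 0.0966), and its groups overlapped because the delta/delta EtOH library exceeded the delta/+ 4OHT library. Snrpd2 had 209.8 and 202 RPKM in 4OHT against 162 and 168 RPKM in EtOH cells, without overlap (0.31, adjusted p = 0.101). Snrpd3 (258 and 279.7 RPKM in 4OHT, 204 and 262 RPKM in EtOH), Snrpb (182 and 163, against 164 and 157) and Snrpe (85.0 and 83.2, against 70.7 and 83.7) had adjusted p of 0.241 to 0.55. Within the ring the change ran from 0.10 for Snrpb to 0.52 for Snrpd1.

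The U1 and U2 particle genes did not pass the test: Snrpa and Snrpc of the U1 particle, and Snrpa1 and Snrpb2 of the U2 particle, had changes between 0.07 and 0.37 and a median of 0.30 (0.08 under median-ratio scaling). Snrpa was without overlap, with 73.8 and 57.6 RPKM in 4OHT cells against 50.3 and 49.8 RPKM in EtOH cells. All 3 Sf3a genes, which form the SF3a trimer of the U2 particle, lay higher in 4OHT cells without overlap. Of all genes tested 38.4% did so, as did 20 of the 48 members, Snrpa among them. None of the 3 Sf3a genes passed the adjusted threshold (median 0.39, and 0.17 under median-ratio scaling). Sf3a1 had 55.2 and 46.4 RPKM in 4OHT against 43.0 and 33.8 RPKM in EtOH cells (0.40, SE 0.13, adjusted p = 0.0713). Sf3a2 had 104 and 75.0 RPKM in 4OHT against 72.6 and 62.6 RPKM in EtOH cells (0.39, SE 0.14, adjusted p = 0.0852), and Sf3a3 70.6 and 74.7 RPKM against 62.7 and 63.6 RPKM (0.20, adjusted p = 0.286).

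The Sf3b genes were less alike, with a median of 0.06 (-0.16 under median-ratio scaling). Without overlap 2 of the 5 lay above EtOH, beside 38.4% of all genes tested. Sf3b4 had 90.2 and 84.2 RPKM in 4OHT cells against 65.4 and 64.9 RPKM in EtOH cells (0.41, SE 0.13, adjusted p = 0.0602), and Sf3b3 87.1 and 99.1 RPKM against 71.8 and 80.9 RPKM (0.28, adjusted p = 0.143); neither overlapped between treatments. Sf3b2, with 165 and 141 RPKM in 4OHT and 168 and 137 RPKM in EtOH cells, had a change of 0.01 (SE 0.12). Sf3b5, a small subunit, had 82.8 and 53.5 RPKM in 4OHT against 74.2 and 54.6 RPKM in EtOH cells (0.06, adjusted p = 0.745). Sf3b1, the subunit that holds the branch point helix and the most often mutated splicing gene in myelodysplasia, had 31.3 and 62.8 RPKM in 4OHT cells against 36.2 and 64.0 RPKM in EtOH cells (-0.11, SE 0.14, adjusted p = 0.549), and its 2 genotypes lay much further apart than its treatments.

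Among SR genes 1 of 11 rose, Srsf2, beside 22.2% of all genes tested, and the median change was 0.16 (-0.06 under median-ratio scaling). Without overlap 4 of the 11 lay above EtOH, beside 38.4% of all genes tested. Srsf3 and Srsf7, SR proteins that also take part in mRNA export, had 91.0 and 112 RPKM and 52.2 and 54.9 RPKM in 4OHT cells (delta/delta and delta/+ of each), against 71.9 and 85.7 RPKM and 40.4 and 42.9 RPKM in EtOH cells. Both lay above their EtOH libraries without overlap and missed the threshold (0.36, adjusted p = 0.0825 for Srsf3 and 0.0905 for Srsf7). Srsf9 had 39.9 and 34.8 RPKM in 4OHT cells against 24.0 and 31.8 RPKM in EtOH cells (0.42, SE 0.18, adjusted p = 0.135), with most of its difference in delta/delta cells. Srsf1 (SF2), the SR protein best known as an oncogene, had 131 and 112 RPKM in 4OHT against 119 and 97.9 RPKM in EtOH cells (0.16, adjusted p = 0.361). Srsf5, the most abundant, had 228 and 316 RPKM against 220.2 and 257 RPKM (0.17, adjusted p = 0.339). Srsf4, Srsf6, Srsf10 and Srsf11 had changes of 0.05 to 0.14 with adjusted p of 0.452 or more. Sfrs18, an arginine-serine-rich protein outside the classical family, had 8.84 and 36.4 RPKM in 4OHT cells against 13.4 and 43.3 RPKM in EtOH cells (-0.40, SE 0.15, adjusted p = 0.0957).

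Of the 18 hnRNP genes 2 rose, Hnrnpf and Hnrnpab, and none fell, beside 22.2% and 10.2% of all genes tested. The median change was 0.17 (-0.05 under median-ratio scaling). Hnrnpc, a poly-U binder that shields introns, had 290.0 and 202 RPKM in 4OHT cells against 193 and 177 RPKM in EtOH cells (0.39, SE 0.14, adjusted p = 0.0931), with the 4OHT delta/delta library the highest. Hnrnpl (CA-repeat binder), Hnrnpu (a nuclear scaffold protein), Hnrnpm and Hnrnpk were also above EtOH in both 4OHT libraries, by 0.19 to 0.31, with adjusted p of 0.11 to 0.23. Hnrnpk had 537 and 498 RPKM in 4OHT against 449 and 454 RPKM in EtOH cells, and Hnrnpa2b1 335 and 436 RPKM against 313 and 409 RPKM (0.10, adjusted p = 0.534). The H genes, close relatives of Hnrnpf that bind the same G-tracts, were not called here, though Hnrnph1 and Hnrnph3 were called lower under median-ratio scaling (-0.57 and -0.64, adjusted p = 0.0353 and 0.0274). Hnrnph3 had 12.9 and 13.5 RPKM in 4OHT cells against 21.2 and 15.5 RPKM in EtOH cells (-0.43, SE 0.17, adjusted p = 0.11), Hnrnph1 97.7 and 151 RPKM against 151 and 158 RPKM (-0.35, adjusted p = 0.171), and Hnrnph2 75.3 and 96.7 RPKM against 74.8 and 89.9 RPKM (0.06). For Hnrnph1 the 4OHT delta/delta library alone stood apart from the other 3. Whether Hnrnpf differs in its change from the H genes was not tested.

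The splicing genes recurrently mutated in myeloid leukaemia can be set side by side. Besides Srsf2 and Sf3b1 above, U2af1, the subunit that reads the AG at the end of the intron, had 279.6 and 240.1 RPKM in 4OHT cells against 245 and 206 RPKM in EtOH cells (0.21, SE 0.12, adjusted p = 0.223). Zrsr2, its relative in the minor spliceosome, had 4.89 and 6.81 RPKM in 4OHT against 4.05 and 6.55 RPKM in EtOH cells (0.14, SE 0.15, adjusted p = 0.513). Only Srsf2 of these 4 passed the threshold, and on a per-length basis Zrsr2 was by far the least abundant. RPKM per gene does not show whether any of them is mutated here.

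The authors' deposited table holds a further comparison, Kal's Z-test of 1 4OHT library against 1 EtOH library. At a corrected p under 0.05 in the authors' deposited table, 8 members were higher in 4OHT in replicate 1 (delta/delta), namely Hnrnpab, Hnrnpc, Hnrnpf, Hnrnpk, Snrpd1, Snrpd3, Snrpf and Srsf2. In replicate 2 (delta/+), 2 were higher in the authors' deposited table, Hnrnpab and Hnrnpf, and none was lower in either. That test compares 2 libraries and takes RPKM as if they were counts. Its folds are of proportions: for Hnrnpab in replicate 1 the fold was 1.53, where the ratio of RPKM was 1.43. The share of all genes called by that test is not given here, so the counts of members cannot be set against it.

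Between genotypes 6 of the 48 members differed (delta/delta minus delta/+, same fit). Hnrnpul1 and Snrpc were higher in delta/delta cells (4.17%, against 4.68% of all genes tested), and Sfrs18, Sf3b1, Hnrnpa1 and Srsf11 were lower (8.33%, against 6.91%). Both shares are near those of all genes. The members' differences ran from -1.77 to 0.73, a wider range than the -0.43 to 0.58 of their changes with 4OHT.

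Sfrs18 (Pnisr) showed the widest gap of any member, with 8.84 and 13.4 RPKM in delta/delta cells (4OHT and EtOH) against 36.4 and 43.3 RPKM in delta/+ cells, a difference of -1.77 (SE 0.15, adjusted p = 0.0126). Sf3b1 had 31.3 and 36.2 RPKM in delta/delta cells against 62.8 and 64.0 RPKM in delta/+ cells (-0.89, SE 0.14, adjusted p = 0.0286). The other Sf3b genes did not pass the test: Sf3b5 was at 82.8 and 74.2 RPKM in delta/delta and 53.5 and 54.6 RPKM in delta/+ cells (0.53, adjusted p = 0.0633), and Sf3b2, Sf3b3 and Sf3b4 differed by -0.18 to 0.26. Hnrnpa1 had 22.8 and 16.4 RPKM in delta/delta cells against 37.1 and 31.1 RPKM in delta/+ cells (-0.78, adjusted p = 0.0343), and Srsf11, an SR-related protein, 40.1 and 37.4 RPKM against 69.2 and 61.0 RPKM (-0.73, adjusted p = 0.0343). Hnrnpul1, a relative of the scaffold protein Hnrnpu with roles in RNA handling and DNA repair, went the other way, with 233 and 246 RPKM in delta/delta cells against 139 and 149 RPKM in delta/+ cells (0.73, adjusted p = 0.0298). Snrpc, the U1 protein that steadies pairing with the 5′ splice site, had 222 and 206 RPKM in delta/delta cells against 134 and 130.4 RPKM in delta/+ cells (0.69, adjusted p = 0.0334). For all 6 the genotypes did not overlap. The same held for members that were not called, such as Snrpb and Srsf10, so it does not set the 6 apart. The share of all genes tested without such overlap is not given here.

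Base composition was set beside the genotype differences. Across the 48 members the difference correlated with the GC content of the transcript (Pearson's r = 0.33), as it did across all genes tested (r = 0.37); points share the 4 libraries, and no test is attached. The 4 members called lower in delta/delta cells had a transcript GC of 42.1 to 45.4%, and Snrpc and Hnrnpul1, called higher, 48.6% and 54.0%. Members that were not called did not all sort this way. Hnrnpr, Hnrnpd and Snrpf, higher in delta/delta cells (0.55, 0.45 and 0.44), had 41.0, 41.7 and 41.3%, while Hnrnpa0 (0.54) had 55.4%. Once a trend with GC and length was taken out, Sfrs18 stayed lower in delta/delta cells (-1.51, adjusted p = 0.0324), Sf3b1 was at -0.50 (adjusted p = 0.095), and Hnrnpr was called higher. The other 4 lost their call with differences of 0.68 for Hnrnpul1, 0.64 for Snrpc, -0.64 for Hnrnpa1 and -0.55 for Srsf11 (adjusted p = 0.0635 to 0.085). With libraries rescaled to equal median ratios 12 members differed, 7 higher (14.6%, against 10.4% of all genes tested) and 5 lower (10.4%, against 8.62%), among them the 6 above; without the filter on low levels (adjusted p = 0.0585 to 0.0699) or with any library left out none of the 6 passed. In this comparison the fits with a library left out held no treatment term, so changes with 4OHT enter them. The labels name 2 library kits without saying which library had which, and a part of the kit in these differences was not tested.

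**Figure D3:**
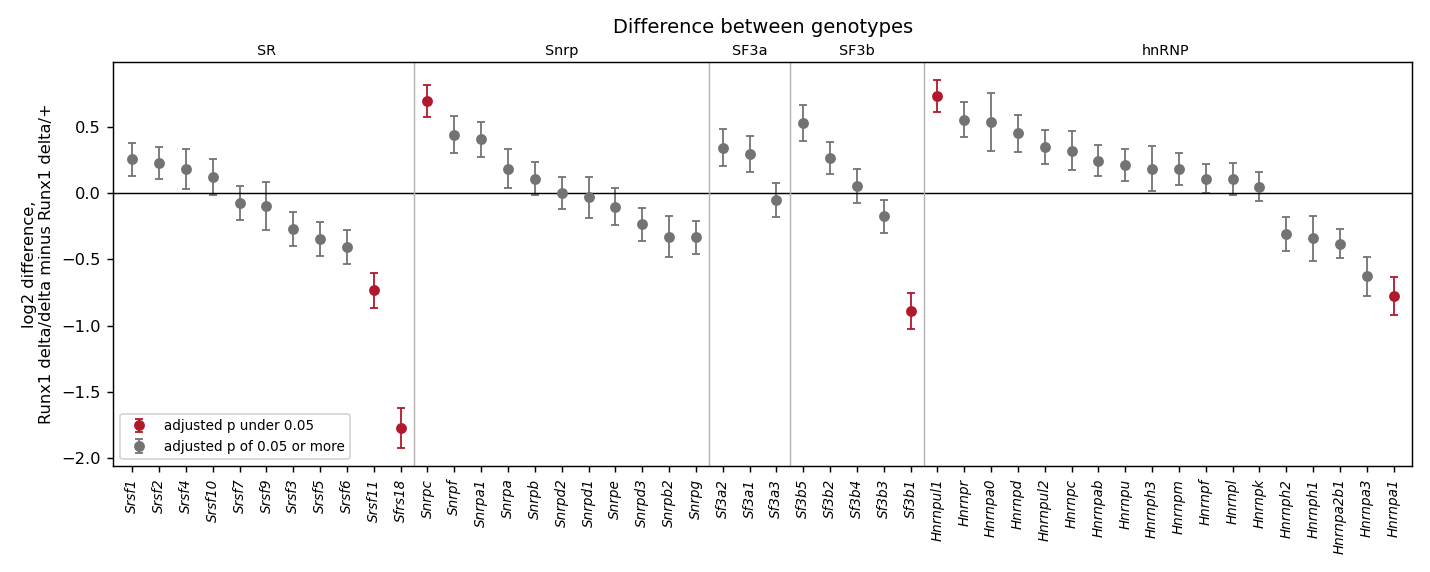
Difference between genotypes (delta/delta minus delta/+) of each member on the log2(RPKM + 1) scale, grouped by family; bars are the standard error from the fit to 4 libraries and red marks the 6 members with an adjusted p under 0.05. Sfrs18 at -1.77 and Sf3b1 at -0.89 lie lowest, and Hnrnpul1 at 0.73 highest.

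Other splicing genes were grouped in lists by function. Of 17 genes of the SMN complex and of snRNP assembly, which load the Sm ring onto small nuclear RNAs, 9 rose, none fell, and the median change was 0.58 (0.36 under median-ratio scaling); of all genes tested 22.2% rose and 10.2% fell. Gemin4, an SMN complex subunit, had 9.46 and 12.4 RPKM in 4OHT cells against 2.12 and 4.39 RPKM in EtOH cells (1.53, SE 0.17, adjusted p = 0.00532). Wdr77 and Prmt5, which together methylate Sm proteins, had 29.4 and 33.7 RPKM and 68.9 and 82.4 RPKM in 4OHT cells against 10.8 and 15.4 RPKM and 36.5 and 47.2 RPKM in EtOH cells (1.23 and 0.84, adjusted p = 0.00615 and 0.0101). Gemin5, which recognises the small nuclear RNA, rose by 0.89 (adjusted p = 0.0103); Prmt7, Gemin8, Clns1a, Gemin6 and Smn1, named after their values were seen, rose by 0.58 to 0.85. Of the 7 Sm genes, whose products these proteins handle, 1 rose; the difference between the lists was not tested. Under median-ratio scaling 5 of the 17 rose and none fell, where 15.3% of all genes tested rose and 17.4% fell. The counts for the list were the same once the trend with GC and length was taken out.

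Of 12 SR protein kinase, phosphatase and transport genes, 6 rose and 1 fell, beside the same 22.2% and 10.2% of all genes tested, with a median of 0.36 (0.14 under median-ratio scaling). Srpk1 and Srpk2, which phosphorylate SR proteins in the cytoplasm, had 59.4 and 65.1 RPKM and 3.63 and 7.17 RPKM in 4OHT cells against 27.1 and 36.7 RPKM and 1.48 and 3.48 RPKM in EtOH cells (0.96 and 0.88, adjusted p = 0.00958 and 0.0132). Of the nuclear CLK kinases, Clk2 had 34.7 and 43.5 RPKM in 4OHT cells against 20.5 and 24.6 RPKM in EtOH cells (0.76, adjusted p = 0.0134), whereas Clk1 fell, with 9.12 and 28.0 RPKM in 4OHT cells against 18.9 and 44.1 RPKM in EtOH cells (-0.81, SE 0.15, adjusted p = 0.0161). In fits without the genotype term the value for Clk1 moved with each library left out: it was -0.04 without the 4OHT delta/delta, -1.57 without the 4OHT delta/+, -1.40 without the EtOH delta/delta and -0.22 without the EtOH delta/+ library. Srpk2, in the same fits, was at 0.47 without the 4OHT delta/+ and 0.45 without the EtOH delta/delta library. Clk1 and Srpk2 also differed between genotypes (delta/delta minus delta/+, -1.35 and -0.84), and such differences enter these fits. Prmt1, Tnpo1 and Ppp1ca, named after their values were seen, rose by 0.42 to 0.74.

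The remaining lists gave fewer calls in number, though they differ in length. Of all genes tested 22.2% rose and 10.2% fell. Of 45 genes of the U1, U5, tri-snRNP and Prp19 complexes 4 rose (Prpf19, Prpf31, Nhp2l1 and Prpf40b, the last named after its value was seen) and Prpf18 fell, with a median of 0.15. Prpf19, the ubiquitin ligase that activates the spliceosome, had 66.9 and 54.8 RPKM in 4OHT cells against 32.8 and 33.9 RPKM in EtOH cells (0.84, adjusted p = 0.0137). Prpf18, a factor of the second catalytic step, had 8.73 and 8.28 RPKM in 4OHT cells against 15.6 and 13.5 RPKM in EtOH cells (-0.71, adjusted p = 0.0172). Of 9 LSm genes 3 rose (Lsm7, Lsm2 and Lsm11; median 0.32), and of 13 U2AF and branch point factors 1 rose, Rbm17 (0.50, adjusted p = 0.0433; median 0.19). Lsm11 was low, with 2.10 and 2.71 RPKM in 4OHT cells against 0.98 and 1.47 RPKM in EtOH cells. Its call was lost with a pseudocount of 0.1. Among 28 hnRNP relatives that go by other symbols (median 0.23), Syncrip was among those that rose, and Pcbp3 and Rod1 fell. Of 37 other splicing regulators 4 rose, Magohb, Magoh, Scaf4 and Sugp2, and none fell (median 0.16). None of 8 nonsense-mediated decay genes passed, nor had any an unadjusted p under 0.05 (median 0.09, limma). Of the genes chosen by rule from these lists, none passed with any library left out (limma). These fits hold no genotype term, so differences between genotypes enter their values. Without the 4OHT delta/delta library Magoh was at 0.04, Lsm2 at 0.27 and Sugp2 at 0.91. Without the 4OHT delta/+ library Magoh was at 0.89 and Sugp2 at 0.30, without the EtOH delta/delta library Magoh was at 0.74, and without the EtOH delta/+ library Magoh was at 0.18, Pcbp3 at -0.57 and Rod1 at -0.29. Under median-ratio scaling the counts higher and lower were 3 and 4 for the tri-snRNP list, 4 and 1 for kinases and transport, 1 and 0 for LSm genes, 0 and 2 for hnRNP relatives, 1 and 3 for other regulators, and 0 and 0 for U2AF and decay factors. With that scaling 15.3% of all genes tested rose and 17.4% fell.

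**Figure D4:**
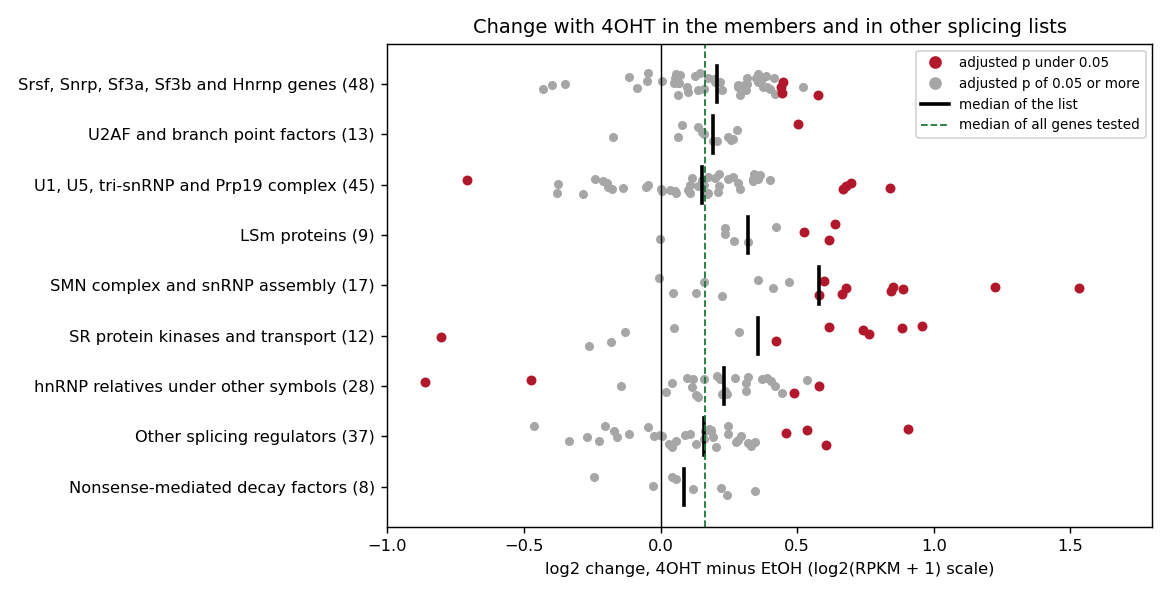
Change with 4OHT (4OHT minus EtOH, log2(RPKM + 1) scale) of each gene, by list, with the number of genes tested in brackets; red points have an adjusted p under 0.05, black bars are list medians and the dashed line is the median of all genes tested. The snRNP assembly list has a median of 0.58 and Gemin4 the highest value, 1.53, while the 48 members cluster around their median of 0.21.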

How the data were processed

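RNA-seq was analysed from 4 libraries, 4OHT and EtOH cultures of Runx1 delta/delta (replicate 1) and Runx1 delta/+ (replicate 2) leukaemic cells. Per the labels' protocols, RNA was extracted with TriFast from sorted cells and libraries were made with a TruSeq or a NEBNext kit. Per the file headers, the authors deposited RPKM per gene and library, and, per the file headers, a fold (score) and p-values from Kal's Z-test for each replicate number. The submitters' processing notes name the build mm 9; of the aligner, the counting rule and the use of strand, nothing is stated in the sources used here.

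Of 23240 rows, 9595 with a mean of at least 1 RPKM were tested with limma 3.58.1 (R 4.3.3) on log2(RPKM + 1), with treatment and genotype in the model and a prior variance that follows expression, two-sided, with Benjamini-Hochberg adjustment over all genes tested at 0.05. RPKM are not counts, so no count test was used; the scale understates changes of low genes. With 1 residual degree of freedom (4.38 more come from the prior), an interaction cannot be tested. Genotype is also the replicate block: same-numbered samples deviated together from their group means (correlation 0.664), and the pairing comes from the genotype in the labels. Any 2 libraries correlated at 0.869 to 0.964, so none repeats another. No label ties libraries to separate cultures or mice, so p-values measure no known spread between mice or cultures. The residual behind them is how far the 4OHT change differs between the 2 genotypes, pooled with a prior from all genes tested. Some of that difference may be technical. Depth came from the RPKM of 1 read in genes with a single transcript; it speaks of counting error only.

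The members and the gene lists were chosen with earlier results of these data known. Named in full were, per family, the up to 4 members with the smallest 4OHT p and the 3 with the highest mean, Srsf2, Sf3b1, U2af1 and Zrsr2, the 4 members with the smallest genotype p, and up to 4 genes per other list; further members complete their family and were named once their values were known. Some genes of the other lists and of the marker lists are not reported here. Transcript GC and length came from a GRCm38 annotation by symbol (99.2% of genes tested), promoters from RefSeq. The fit was checked on simulated data. Alternatives were a pseudocount of 0.1, no filter, median-ratio scaling, no replicate block, a constant prior, removal of a trend with GC and length, and leaving out each library. Without the block or with a library left out, the genotype comparison kept genotype and dropped treatment.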

Additional observations from a re-analysis of the deposited data

Results flagged for a closer look

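For 7 members the change with 4OHT (4OHT minus EtOH, log2(RPKM + 1) scale) had opposite signs in delta/delta and in delta/+ cells, with 1 library per arm and genotype. The difference was not tested, since an interaction leaves no residual degree of freedom. Hnrnpa0, a small hnRNP of the A group, showed the widest gap: it had 39.3 RPKM in 4OHT against 26.6 RPKM in EtOH delta/delta cells and 20.1 RPKM in 4OHT against 24.1 RPKM in EtOH delta/+ cells, changes of 0.55 and -0.26 that differ by 0.80. Srsf4 had changes of -0.12 in delta/delta and 0.23 in delta/+ cells, a difference of -0.35. Hnrnpa3 had changes of -0.20 and 0.10 (difference -0.29), and Snrpe of 0.26 and -0.01 (0.27). Sf3b5 had changes of 0.16 and -0.03 (0.19), Srsf10 of -0.03 and 0.14 (-0.17), and Sf3b2 of -0.03 and 0.04 (-0.077), in delta/delta and delta/+ cells in this order. Of all 9595 genes tested, 1794 had opposite signs in the 2 genotypes.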

How the results depend on the processing

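The members called with 4OHT numbered 4 (all higher) in the analysis as reported and with a pseudocount of 0.1 (the same 4 genes), 1 (Hnrnpf) with a constant prior variance, 0 with no filter on low values, 0 after removal of a trend with GC and length, and 3 (0 higher, 3 lower) with median-ratio scaling. Genotype is the replicate block. Without it 0 members were called with 4OHT. Over all genes the calls with 4OHT then numbered 117 higher and 116 lower, against 2130 and 983 with the block. For the genotype comparison this setting kept genotype and dropped treatment instead, and 0 members were called. The same holds for the genotype comparison with a library left out, so changes with 4OHT enter its differences. Members called between genotypes numbered 6 (2 higher, 4 lower) as reported, with a pseudocount of 0.1 and with a constant prior; they were 0 with no filter, 12 (7 higher, 5 lower) with median-ratio scaling and 2 (1 higher, 1 lower) after removal of the GC and length trend. With any 1 library left out, in fits that drop the block and take the lone library of an arm to vary like the other arm, 0 members were called in either comparison; leaving out the EtOH delta/delta library gave 0 higher and 3 lower over all genes, and each other library 69 to 126 higher and 112 to 137 lower. Without the block 0 genes of the other splicing lists were called.

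The changes with 4OHT followed here are only those of genes named in full by rule. Other members also turned negative under median-ratio scaling, such as Hnrnph2 (0.06 to -0.16) and Srsf4 (0.05 to -0.17). Among the genes named in full, changes that turned negative under median-ratio scaling were those of Snrpd3 (-0.0054), U2af1 (-0.0151), Sf3a3 (-0.0219), Hnrnpk (-0.0282), Srsf5 (-0.049), Zrsr2 (-0.051), Srsf1 (-0.0603), Hnrnpa2b1 (-0.13), Snrpc (-0.15), Sf3b5 (-0.16) and Sf3b2 (-0.22). After removal of the GC and length trend they were those of Snrpd3 (-0.0029), U2af1 (-0.0181), Srsf5 (-0.0312), Sf3a3 (-0.0357), Hnrnpa2b1 (-0.10), Sf3b5 (-0.11), Snrpc (-0.15) and Sf3b2 (-0.20). The change crossed 0 when single libraries were left out for Hnrnpa2b1 (-0.10 to 0.29), Hnrnpul1 (-0.46 to 0.28), Sf3b1 (-0.60 to 0.38), Sf3b2 (-0.14 to 0.16), Sf3b5 (-0.25 to 0.37), Sfrs18 (-1.36 to 0.57), Snrpc (-0.29 to 0.43), Srsf5 (-0.0623 to 0.41), Smg1 (-0.11 to 0.81), Upf2 (-0.77 to 0.29) and Zrsr2 (-0.15 to 0.43). None of these passed the threshold as reported. The fits with a library left out hold no genotype term, so differences between genotypes enter their changes. How much of each shift such differences make up was not tested, nor was the cause of the other sign changes. Of 67 single-gene results, 64 kept direction and side of the threshold with the other pseudocount. The 3 that did not, Lsm11, Magoh and Syncrip, lost their call (limma adjusted p = 0.05075, 0.05142 and 0.05186). The number kept was 59 with a constant prior, 45 without the filter and 33 without the block. None was reversed in any of these settings.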
